A study of Mus musculus with 12 samples.

Results

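The 10 genes described here carry dietary fat through the absorptive cells of the small intestine: Cd36, Fabp1 and Fabp2 in fatty acid uptake and handling, Mogat2 and Dgat1 in triglyceride synthesis, and Mttp, Apob, Apoa1, Apoa4 and Apoc3 in the assembly and coat of chylomicrons. They were taken by gene symbol, and all 10 of 10 were found among the 19938 genes measured, each by 1 probe set that mapped to that symbol alone. Levels are log2 expression values, on which 1 unit is a factor of 2, and no gene's level is set against another's because probe sets differ in brightness.

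Epithelium of intestinal tumors, and tumor adjacent epithelium, was dissected by laser from stained slides of male C57BL6/J APCmin/+ mice aged 25 weeks, in which a truncated Apc allele leads to intestinal adenomas. FSPCre-PPARB -/- mice, called KO here, lack Ppard, the nuclear receptor PPAR-beta/delta, in cells where the fibroblast-specific protein promoter drives Cre, and PPARB flox/flox littermates, called floxed here, carry the floxed gene. Tumor epithelium was measured on 3 KO and 3 floxed arrays, and tumor adjacent epithelium on 2 KO and 2 floxed arrays. A further 2 adjacent arrays carry opposite genotypes in their title and their genotype characteristic, are called conflict arrays 1 and 2, and enter no comparison but that of the tissues on all 12 arrays. No label says which mouse an array came from, so some may share one, and p-values measure the spread between these arrays only, which may be in part technical.

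In the fed intestine, fatty acids and monoglycerides enter enterocytes, are bound by small fatty acid binding proteins, and are rebuilt into triglycerides at the endoplasmic reticulum. Microsomal triglyceride transfer protein loads these lipids onto apolipoprotein B, and the growing particle gains further apolipoproteins before it leaves the cell as a chylomicron towards the lymph. Many of these genes are bound by the nuclear receptors HNF4A and HNF4G in mouse intestine, and enterocytes express them strongly as they mature along the villus.

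Because the 10 genes are active in the same cell, the 250 bases before the start of each gene were read from RefSeq (GRCm38.p6) and searched on both strands for short motifs of such receptors. A promoter was found for 7 of the 10 genes, all but Apoc3, Mogat2 and Dgat1. The 4 printed here are those with a direct repeat or an HNF4-type core, written 5′ to 3′ on the plus strand, with the match in capitals.
Fabp1, chr6:71199629-71199878: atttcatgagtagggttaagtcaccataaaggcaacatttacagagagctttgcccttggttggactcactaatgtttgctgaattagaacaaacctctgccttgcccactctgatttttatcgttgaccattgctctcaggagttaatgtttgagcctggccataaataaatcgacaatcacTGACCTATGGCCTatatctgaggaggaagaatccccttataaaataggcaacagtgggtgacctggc
Fabp2, chr3:122894822-122895071: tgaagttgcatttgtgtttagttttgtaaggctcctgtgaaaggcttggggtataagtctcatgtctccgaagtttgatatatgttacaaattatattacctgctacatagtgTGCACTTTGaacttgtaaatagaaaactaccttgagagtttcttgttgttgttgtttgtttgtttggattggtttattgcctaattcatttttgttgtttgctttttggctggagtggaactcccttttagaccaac
Apob, chr12:7977427-7977676: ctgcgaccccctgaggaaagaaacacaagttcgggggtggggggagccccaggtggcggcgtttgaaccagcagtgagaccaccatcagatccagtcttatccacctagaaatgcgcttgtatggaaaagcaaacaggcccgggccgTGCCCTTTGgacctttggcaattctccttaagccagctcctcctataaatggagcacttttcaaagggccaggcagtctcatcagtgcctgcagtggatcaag
Apoa4, chr9:46240594-46240843: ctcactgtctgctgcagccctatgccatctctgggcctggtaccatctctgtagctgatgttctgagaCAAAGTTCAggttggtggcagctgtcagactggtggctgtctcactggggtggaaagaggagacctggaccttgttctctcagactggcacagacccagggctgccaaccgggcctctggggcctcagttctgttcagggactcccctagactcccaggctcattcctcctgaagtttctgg

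The Fabp1 promoter held a DR1 motif, a direct repeat of receptor sites spaced by 1 base, of the kind that PPAR and HNF4 receptors bind, read on the minus strand and lying 67 bases before the start, while 0.0822% of 32851 promoters of this length held it. The HNF4 core CAAAGTNCA lay 182 bases before the start of Apoa4 and, on the minus strand, 137 bases before that of Fabp2, against 1.19% of all promoters. Apob held the related CAAAGGNCA on the minus strand at 103 bases, against 1.71%. Each match is a string of letters and does not show binding. Apoa1, Apoc3 and Apoa4 are neighbours on chromosome 9, in the order Apoa1, Apoc3, Apoa4 with Apoa5 next, and the other 7 genes lie on chromosomes 3, 5, 6, 7, 12 and 15.

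The arrays differed in signal in a way that went with genotype. KO arrays correlated with each other at 0.947 to 0.973 over all probe sets, whereas floxed tumor arrays 1 and 2 and both floxed adjacent arrays correlated with all others at only 0.496 to 0.640 and are termed weak-signal arrays. The term rests on correlation and not on a measured intensity. The medians of the weak-signal arrays were 4.391 to 4.437, and those of the other arrays 4.247 to 4.375. Values on the weak-signal arrays were less spread, with an SD of 1.04 to 1.09 against 1.49 to 1.57. The third floxed tumor array correlated with KO arrays at 0.812 to 0.839. Ppard was at 6.06, 6.07 and 6.50 on KO tumor arrays, against 4.95, 4.48 and 5.79 on floxed tumor arrays, so it was not lower where the labels say it was removed (1.14 ± 0.33 for KO minus floxed, SE, limma adjusted p = 0.0991). Cre acts in fibroblasts and epithelium was dissected, so these values do not test the labels. The mean of 8 epithelial markers was 6.40 to 7.42 on KO tumor arrays and 4.96 to 8.28 on floxed tumor arrays, and 6.92 to 7.04 on KO adjacent arrays and 5.11 to 5.17 on floxed adjacent arrays.

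The tissue labels went against the markers of adenoma. Among the KO arrays, all 12 of 12 genes of a list of Wnt targets and adenoma markers were below 0 for tumor minus adjacent, with a median of −1.04, and their mean was 4.76 to 4.82 on the arrays labelled tumor against 5.69 to 5.97 on the arrays labelled adjacent, and 7 of the 12 were lower past the test in a fit of the 5 KO arrays alone, where 1.29% of all genes were lower. Among the floxed arrays the mean of that list was 4.46 to 4.75 on those labelled tumor and 4.46 to 4.70 on those labelled adjacent. Tumor and adjacent therefore stand here for the labels, and every tissue difference is one between arrays so labelled.

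**Figure D1:**
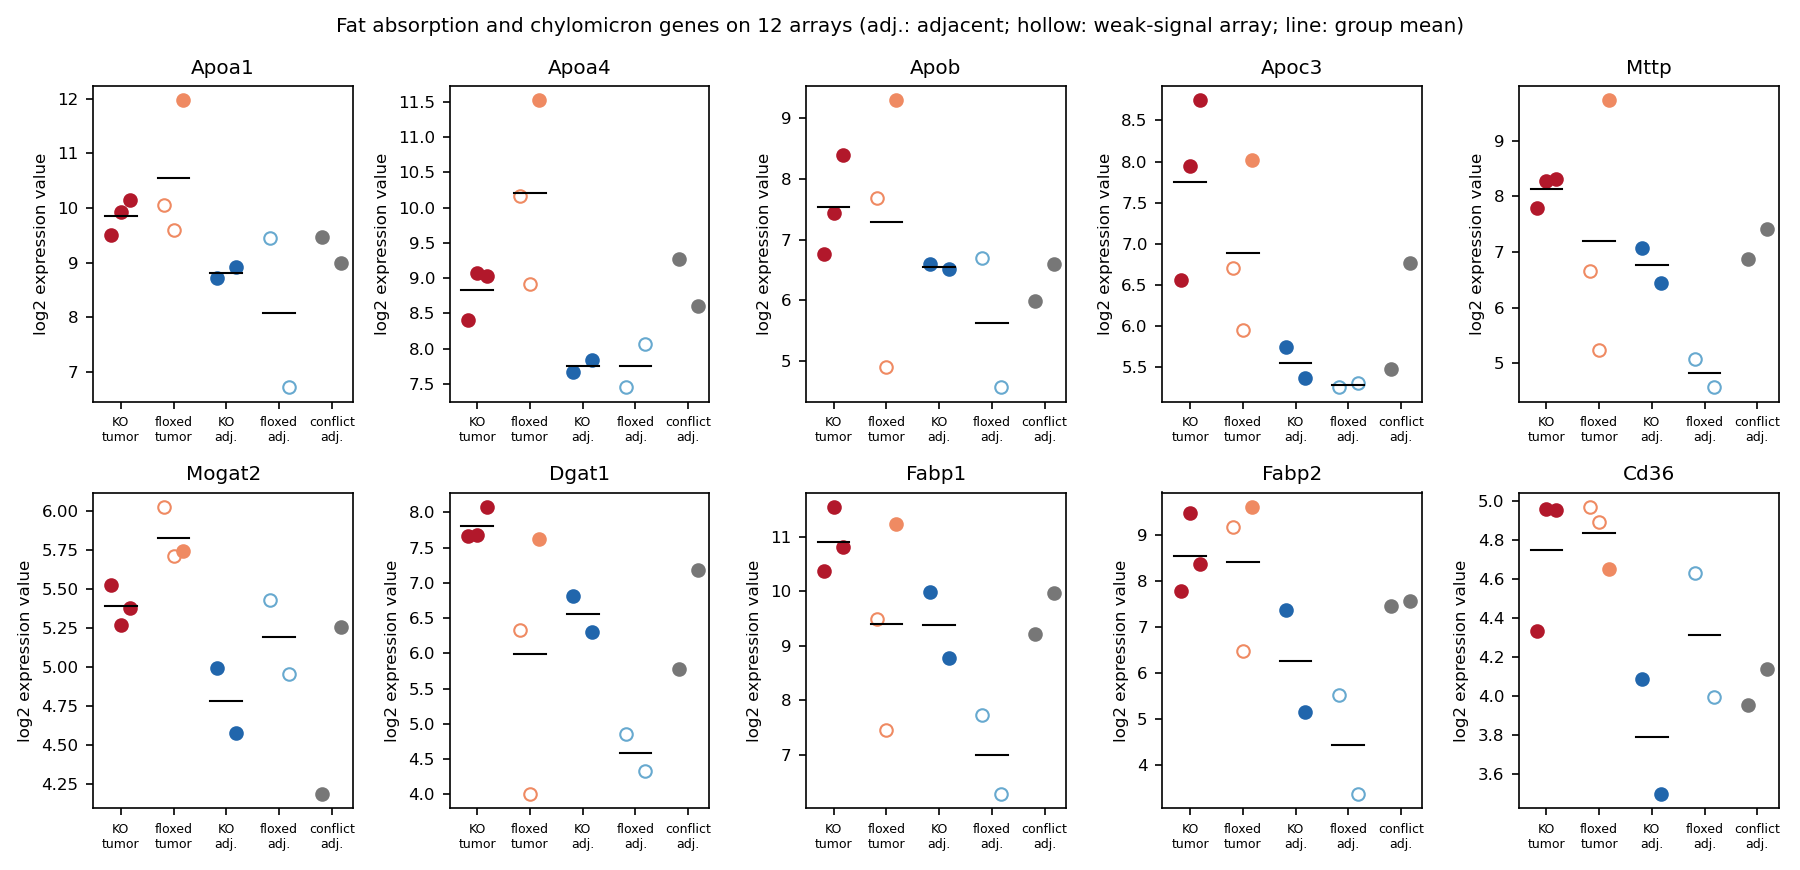
Each panel shows 1 of the 10 genes, with the log2 expression value (vertical axis) of each of 12 arrays by group (horizontal axis), hollow points for weak-signal arrays and a line at the group mean (none for the conflict arrays). In every panel the KO tumor points lie above the KO adjacent points, and floxed tumor array 3 is the highest of all 12 arrays for Apoa1, Apoa4, Apob, Mttp and Fabp2.

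In KO mice, all 10 genes were higher on the tumor arrays than on the adjacent arrays, and for each of the 10 the 3 tumor arrays lay wholly above the 2 adjacent arrays. Among all genes, 17.9% were higher with no overlap in this comparison. The median difference of the 10 was 1.17 log2 units, against 0.04 over all genes. With 1 spread per gene shared by the 4 groups, which includes the weak-signal arrays, none of the 10 passed the test at an adjusted p under 0.05 (limma adjusted p = 1 for each), where 0.0201% of all genes passed, all lower. At an unadjusted p under 0.05, 4 of the 10 and 2.47% of all genes passed. In a fit of the 5 KO arrays alone, 4 of the 10 rose, Apoa1, Apoa4, Mttp and Dgat1, where 1.85% of all genes passed, 0.557% higher. Less RNA of these genes per cell and fewer cells that express them cannot be told apart in dissected tissue.

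In order of function, the genes of fatty acid binding and uptake come first. Fabp2, the intestinal fatty acid binding protein, was at 7.79, 9.47 and 8.36 on KO tumor arrays, against 7.37 and 5.15 on KO adjacent arrays. The lowest tumor array was only a little above adjacent array 1, and the adjacent arrays lay far apart. Its difference was 2.28 ± 0.98 in the fit of 4 groups (log2, SE, n = 3 and 2). Its SE was 0.64 and its adjusted p 0.142 in the KO arrays alone. Fabp1, the liver type binding protein that enterocytes also make in quantity, was at 10.37, 11.55 and 10.82 on KO tumor arrays, against 9.99 and 8.77 on KO adjacent arrays. Here too adjacent array 1 came close to the lowest tumor array. The difference of Fabp1 was 1.53 ± 0.89 in the fit of 4 groups. Its SE was 0.40 and its adjusted p 0.119 in the KO arrays alone. Cd36, a membrane protein that takes up long chain fatty acids, was dim, at 4.34, 4.96 and 4.95 on KO tumor arrays, against 4.09 and 3.50 on KO adjacent arrays. The medians of all values on an array were 4.25 to 4.44. Among the genes of each array, Cd36 stood at percentiles 44.4, 67.1 and 66.7 on KO tumor arrays, and at 37 and 21.3 on KO adjacent arrays. The difference of Cd36 was 0.96 ± 0.32 in the fit of 4 groups (SE 0.24 and adjusted p = 0.107 in the KO arrays alone).

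Both genes of triglyceride synthesis were apart between the tissues. Dgat1, which adds the last fatty acid to a triglyceride, was at 7.67, 7.68 and 8.08 on KO tumor arrays, against 6.81 and 6.31 on KO adjacent arrays. The tumor arrays were close together and the nearest adjacent array was well below them. Dgat1 rose by 1.25 ± 0.20 log2 units in the KO arrays alone (limma adjusted p = 0.0281), and the same difference had an SE of 0.77 with the floxed arrays in the fit. Mogat2, which joins a fatty acid to a monoglyceride in the intestinal route to triglyceride, was at 5.53, 5.27 and 5.38 on KO tumor arrays, against 4.99 and 4.58 on KO adjacent arrays. Its groups were apart, by a smaller step than those of Dgat1. The difference of Mogat2, the smallest of the 10, was 0.61 ± 0.27 in the fit of 4 groups. Its SE was 0.17 and its adjusted p 0.132 in the KO arrays alone.

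Particle assembly depends on Mttp, which transfers lipid, and Apob, the structural protein that stays with the particle. Mttp was at 7.79, 8.27 and 8.31 on KO tumor arrays, against 7.08 and 6.45 on KO adjacent arrays. Both adjacent arrays were below the tumor range. Mttp rose by 1.36 ± 0.23 in the KO arrays alone (limma adjusted p = 0.0319), and the SE was 0.95 in the fit of 4 groups. Apob was at 6.76, 7.44 and 8.40 on KO tumor arrays, against 6.60 and 6.51 on KO adjacent arrays. Its tumor arrays spread over more than 1 unit, and the lowest of them was close to both adjacent arrays. The difference of Apob was 0.98 ± 1.05 in the fit of 4 groups. Its SE was 0.39 in the KO arrays alone, where it had the highest adjusted p of the 10, 0.315.

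The exchangeable apolipoproteins coat the particle. Apoa1, a protein of chylomicrons and of HDL, was at 9.51, 9.93 and 10.14 on KO tumor arrays, against 8.71 and 8.91 on KO adjacent arrays. It rose by 1.05 ± 0.20 in the KO arrays alone (limma adjusted p = 0.0418), and the SE was 0.77 in the fit of 4 groups. Apoa4, which the intestine secretes on chylomicrons after fat is eaten, was at 8.41, 9.07 and 9.04 on KO tumor arrays, against 7.67 and 7.83 on KO adjacent arrays. For both genes the adjacent arrays were close together and lower. Apoa4 rose by 1.09 ± 0.21 in the KO arrays alone (adjusted p = 0.0474), and the SE was 0.59 in the fit of 4 groups. Apoc3, which slows the clearance of triglyceride-rich particles, was at 6.56, 7.95 and 8.74 on KO tumor arrays, against 5.74 and 5.37 on KO adjacent arrays. Its tumor arrays were far apart and all above the adjacent ones. The difference of Apoc3, 2.20 ± 0.64, had the smallest unadjusted p of the 10 in the fit of all 4 groups (0.00579). Its SE was 0.52 and its adjusted p 0.0848 in the KO arrays alone.

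The 4 calls in the KO arrays alone depended on 3 of the 5 arrays. Leaving out KO tumor array 1 gave 6 of the 10 past the test, among 313 of all genes, and leaving out KO tumor array 3 gave 5, among 633 of all genes. Without KO tumor array 2, KO adjacent array 1 or KO adjacent array 2, none passed, and 56, 64 and 10 genes passed among all genes. In each of these 5 fits all 10 genes were higher on tumor arrays. No omission could change that, because every KO tumor array lay above every KO adjacent array.

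**Figure D2:**
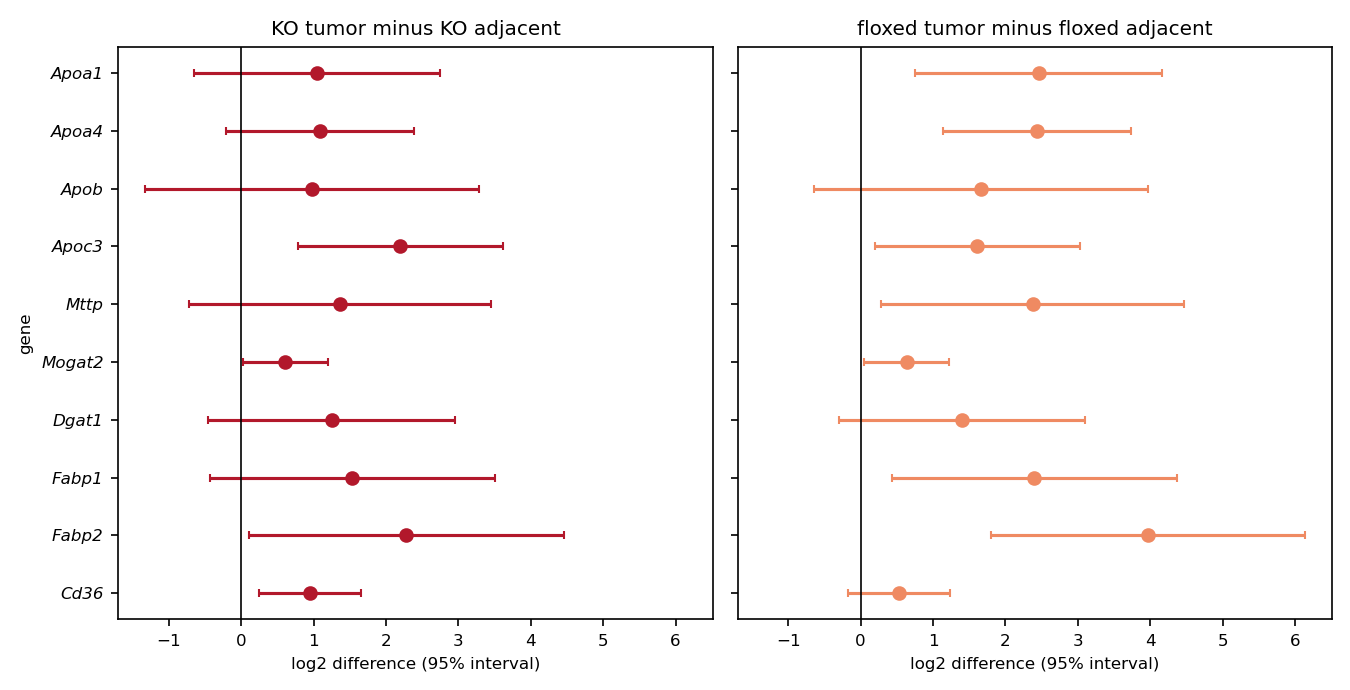
Log2 difference (horizontal axis, with 95% intervals from the fit of 4 groups) of arrays labelled tumor minus arrays labelled adjacent for each of the 10 genes, in KO mice on the left and floxed mice on the right. All 20 points lie above 0, from 0.52 for Cd36 in floxed mice to 3.97 for Fabp2 in floxed mice.

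In floxed mice the 10 genes were also all higher on tumor arrays, by a median of 2.02 against −0.01 over all genes, and none passed the test, where 0.00502% of all genes did. At an unadjusted p under 0.05, 7 of the 10 and 12.5% of all genes passed. In 7 of the 10 the groups did not overlap, against 8.64% of all genes that were higher with no overlap. All the adjacent arrays of this comparison, and 2 of the 3 tumor arrays, had weak signal. Fabp2 was at 9.16, 6.47 and 9.60 on floxed tumor arrays, against 5.51 and 3.37 on floxed adjacent arrays, and its difference was 3.97 ± 0.98 (SE, n = 3 and 2, adjusted p = 0.227). Apoa4 was at 10.16, 8.92 and 11.52 on floxed tumor arrays, against 7.45 and 8.07 on floxed adjacent arrays, with a difference of 2.44 ± 0.59 (adjusted p = 0.213). For both genes every tumor array was above both adjacent arrays, and tumor array 2 was the lowest of the tumor arrays.

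The other genes of the floxed comparison split by whether tumor array 2 stayed above the adjacent arrays. Apoa1 was at 10.05, 9.61 and 11.97 on floxed tumor arrays, against 9.45 and 6.72 on floxed adjacent arrays (difference 2.46 ± 0.77, adjusted p = 0.269), and all tumor arrays were above. Mttp was at 6.65, 5.23 and 9.72 on floxed tumor arrays, against 5.09 and 4.57 on floxed adjacent arrays (2.38 ± 0.95, adjusted p = 0.349), and tumor array 2 was barely above. Apoc3 was at 6.71, 5.95 and 8.02 on floxed tumor arrays, against 5.25 and 5.31 on floxed adjacent arrays (1.61 ± 0.64, adjusted p = 0.349). Mogat2 and Cd36 had the smallest differences, 0.64 ± 0.27 and 0.52 ± 0.32.

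Overlap occurred for Fabp1, Dgat1 and Apob. Fabp1 was at 9.49, 7.45 and 11.24 on floxed tumor arrays, against 7.72 and 6.28 on floxed adjacent arrays (2.40 ± 0.89, adjusted p = 0.329). Dgat1 was at 6.33, 4.00 and 7.62 on floxed tumor arrays, against 4.85 and 4.32 on floxed adjacent arrays (1.40 ± 0.77, adjusted p = 0.483). Apob was at 7.69, 4.90 and 9.30 on floxed tumor arrays, against 6.70 and 4.56 on floxed adjacent arrays (1.67 ± 1.05, adjusted p = 0.536). In all 3 genes floxed tumor array 2 lay below floxed adjacent array 1. Without floxed tumor array 2, 4 of the 10 genes passed, Apoa4 (3.08), Dgat1 (2.39), Fabp1 (3.37) and Fabp2 (4.94), with adjusted p of 0.0378 to 0.0485, where 1.72% of all genes passed.

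The tissue difference itself was not shown to depend on genotype. The interaction, the KO tissue difference minus the floxed one, had a median of −0.77 over the 10 genes and adjusted p of 0.837 to 0.996, and 0% of all genes passed. Its largest sizes were −1.69 ± 1.39 for Fabp2, −1.41 ± 1.09 for Apoa1 and −1.35 ± 0.83 for Apoa4. The 95% interval for Fabp2 reached from −4.76 to 1.39, so for that gene a difference of several units cannot be resolved. Intervals were narrower for Mogat2 (−0.86 to 0.81) and Cd36 (−0.57 to 1.43). At an unadjusted p under 0.05, 0 of the 10 genes and 1281 of all genes passed.

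Over all 12 arrays, tumor minus adjacent was above 0 for all 10 genes, by a median of 1.39 against 0.01 over all genes, and 0 passed by limma, where 0% of all genes did. At an unadjusted p under 0.05, 6 of the 10 genes and 513 of all genes passed. Array weights gave 2 of the 10 past the test, Apoc3 and Cd36, among 127 of all genes. The differences were 2.41 ± 0.72 for Fabp2, 1.67 ± 0.44 for Apoc3, 1.50 ± 0.73 for Fabp1, 1.49 ± 0.48 for Apoa1 and 0.71 ± 0.22 for Mogat2 (SE, n = 6 and 6). Apoa1, with a lowest tumor array of 9.51 and a highest adjacent array of 9.47, was the only gene of the 10 without overlap, against 0.0652% of all genes that were higher with no overlap. Without the weak-signal arrays the median was 1.44 and all 10 genes stayed above 0, with a lowest adjusted p of 0.382.

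Other markers of absorptive enterocytes moved with these genes. Of 17 listed markers that do not take part in fat absorption, such as Sis, Anpep and Slc5a1, 16 were measured. All 16 were higher on KO tumor than on KO adjacent arrays, by a median of 1.55. In the KO arrays alone 3 were past the test, where 0.557% of all genes were higher past it. Their summed log2 level was 109.8 to 118.4 on KO tumor arrays against 77.9 to 97.7 on KO adjacent arrays, and 77.2 to 114.1 on floxed tumor arrays against 68.7 to 78.7 on floxed adjacent arrays. Not all of these markers were bright: Mep1a was at 2.73 to 4.41 on the 12 arrays, whose medians were 4.25 to 4.44. Across arrays, the mean of the 10 genes and the mean of the 16 markers correlated at 0.903 over 12 arrays and at 0.834 over the 8 arrays without weak signal, arrays that also share tissue and signal. The part of enterocyte content in the tissue differences was not tested. Markers of hepatocytes, which also make apolipoproteins, and of adipocytes, which also make Cd36, averaged 3.51 to 4.35 and 3.82 to 4.74 in the 5 groups, near the arrays' medians.

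**Figure D3:**
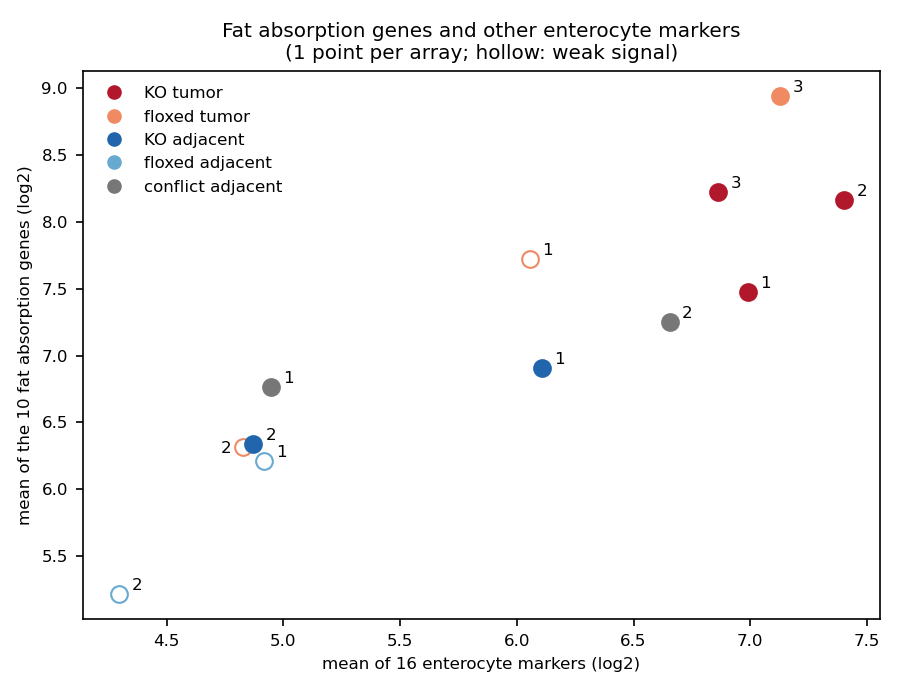
Each point is 1 of 12 arrays, with the mean log2 value of 16 enterocyte markers on the horizontal axis and the mean of the 10 fat absorption genes on the vertical axis, numbered by replicate within a colour for each group, and hollow where the signal was weak. The points rise together (r = 0.903), floxed tumor array 3 stands highest at 8.94 for the 10 genes, and floxed adjacent array 2 stands lowest at 5.22.

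The 10 genes did not vary as 1 block. Their 45 pairwise correlations over the 12 arrays ran from 0.127 to 0.953 with a median of 0.656, and over the 8 arrays without weak signal from 0.303 to 0.953 with a median of 0.762. Against the mean of the other 9, Fabp2, Mttp and Fabp1 correlated at 0.915, 0.914 and 0.897 over 12 arrays, while Mogat2 and Cd36 did so at 0.401 and 0.503. Over the 8 arrays without weak signal, Mogat2 and Cd36 reached 0.785 and 0.874. Apoa1 and Apoa4 were the genes of the 10 that followed the enterocyte markers least over those 8 arrays, at 0.510 and 0.395, whereas Fabp1 and Dgat1 followed them at 0.936 and 0.927. The span between the lowest and highest of 12 arrays was 6.23 for Fabp2 and 1.47 for Cd36.

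Genes outside the list were ranked by the likeness of their pattern to the mean of the 10, as Pearson's r across arrays. The 5 highest over 12 arrays were Upp1, a uridine phosphorylase, at 0.956, Slc9a3r1, a scaffold under the brush border, at 0.951, Mtarc2 at 0.950, Gucy2c, the receptor for guanylin, at 0.943, and Mgam, a brush border disaccharidase, at 0.937. Over the 8 arrays without weak signal they were Acsl5, which activates fatty acids, at 0.995, Atp1b1, a subunit of the sodium pump, at 0.988, Slc7a15 at 0.984, and Slc2a5, the fructose transporter, and Mpp1, both at 0.981.

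KO and floxed tumor epithelium, the comparison in the study's title, did not differ past the test in any of the 10 genes, where 1.08% of all genes did. The median difference was 0.18, against −0.01 over all genes, and 2 of the 10, Apoa4 and Dgat1, had an unadjusted p under 0.05, as did 23% of all genes. Dgat1 was at 7.67, 7.68 and 8.08 on KO tumor arrays, against 6.33, 4.00 and 7.62 on floxed tumor arrays. All KO arrays were higher, with floxed tumor array 3 just below them, and 13.2% of all genes were higher with no overlap. The difference of Dgat1 was 1.82 ± 0.69 (log2, SE, n = 3 and 3, 95% interval 0.30 to 3.34, adjusted p = 0.159).

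The apolipoprotein genes differed among themselves in direction. Apoa4 was at 8.41, 9.07 and 9.04 on KO tumor arrays, against 10.16, 8.92 and 11.52 on floxed tumor arrays, with a difference of −1.36 ± 0.53 (95% interval −2.53 to −0.20, adjusted p = 0.166). Apoa1 was at 9.51, 9.93 and 10.14 on KO tumor arrays, against 10.05, 9.61 and 11.97 on floxed tumor arrays, with a difference of −0.68 ± 0.69 (adjusted p = 0.583). For both genes floxed tumor array 3 was the highest and floxed tumor array 2 lay among the KO arrays. Apob differed by 0.24 ± 0.94 and Apoc3 by 0.86 ± 0.57, with adjusted p of 0.903 and 0.391, and the 95% interval for Apob ran from −1.83 to 2.30.

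Among the genes of uptake, synthesis and transfer, Fabp1 differed by 1.52 ± 0.80 (adjusted p = 0.280) and Mttp by 0.92 ± 0.85 (adjusted p = 0.538), with floxed tumor arrays 1 and 2 below all KO tumor arrays for both genes. Mogat2 was at 5.53, 5.27 and 5.38 on KO tumor arrays, against 6.03, 5.71 and 5.75 on floxed tumor arrays. It was the only gene of the 10 that was lower in KO with no overlap, as 13.9% of all genes were, by −0.44 ± 0.24 (adjusted p = 0.299). Fabp2 differed by 0.13 ± 0.88 and Cd36 by −0.09 ± 0.29, with 95% intervals from −1.81 to 2.07 and from −0.72 to 0.54.

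These values depended on which floxed arrays stood against KO. Without the weak-signal arrays, 3 KO tumor arrays faced floxed tumor array 3 alone, which was assumed to vary like the other groups. Apoa4 (−2.69 ± 0.27, adjusted p = 0.00215), Apoa1 (−2.11 ± 0.25, adjusted p = 0.00298), Mttp (−1.60 ± 0.29, adjusted p = 0.0102) and Apob (−1.77 ± 0.49, adjusted p = 0.040) were then lower in KO, where 19.4% of all genes passed, 9.92% lower. Mttp and Apob thereby changed sign. Without floxed tumor array 3 instead, Mttp (2.18, adjusted p = 0.00376), Dgat1 (2.64, adjusted p = 0.00602) and Fabp1 (2.44, adjusted p = 0.0183) were higher in KO, where 29.1% of all genes passed.

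Floxed tumor array 3 also stood apart from the other tumor arrays in its markers. Epithelial markers averaged 8.28 there, against 6.40 to 7.42 on KO tumor arrays, and 3 markers of exocrine pancreas averaged 7.79, against 4.59 to 6.60. Conflict array 1, an adjacent array, came near it in both, at 7.87 and 7.56. The 16 enterocyte markers averaged 7.13 on floxed tumor array 3, against 6.86 to 7.40 on KO tumor arrays and 4.95 on conflict array 1. On floxed tumor arrays 1 and 2 they averaged 6.05 and 4.83, and over all 3 floxed tumor arrays all 16 were higher in KO, by a median of 1.07. The part of these differences between arrays in the genotype values of the 10 genes was not tested.

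**Figure D4:**
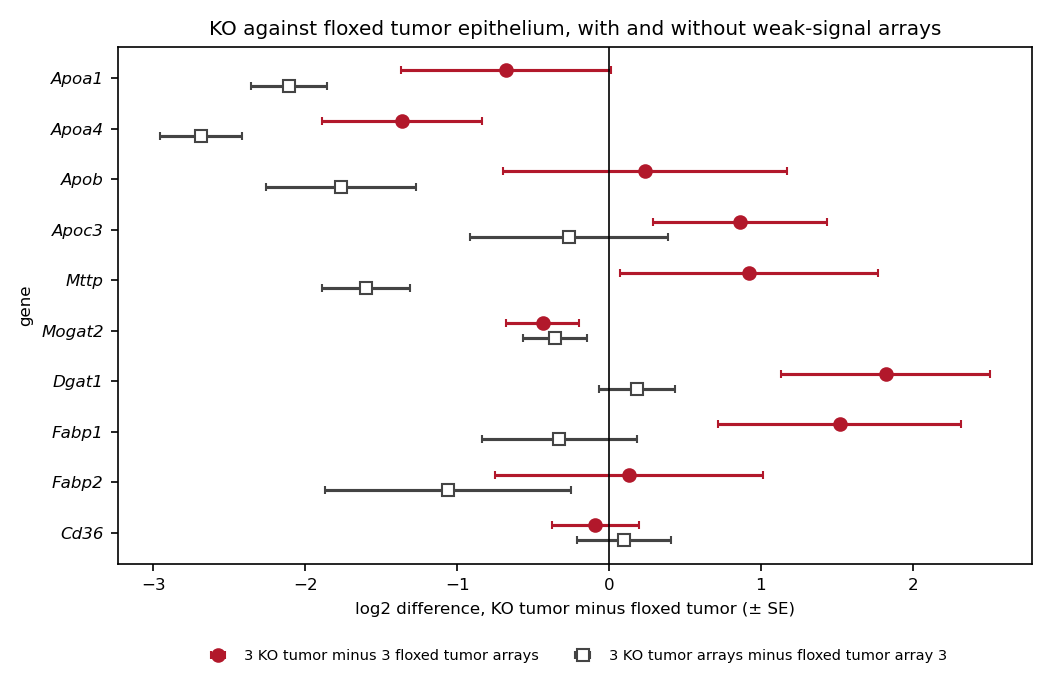
Log2 difference of KO minus floxed tumor epithelium (horizontal axis, bars are the SE) for each of the 10 genes, with red circles for all 3 floxed tumor arrays and open squares for floxed tumor array 3 alone. Apob, Apoc3, Mttp, Fabp1 and Fabp2 lie above 0 as circles and below 0 as squares, and Cd36 the reverse.

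In adjacent epithelium the genotype comparison set 2 KO arrays against 2 floxed arrays that both had weak signal. None of the 10 genes passed, where 6.06% of all genes did, 2 of them had an unadjusted p under 0.05, as did 28.2% of all genes, and the median difference was 0.83 against −0.05. Fabp1 was at 9.99 and 8.77 on KO adjacent arrays, against 7.72 and 6.28 on floxed adjacent arrays, a difference of 2.38 ± 0.98 (SE, n = 2 and 2, adjusted p = 0.142). Dgat1 was at 6.81 and 6.31 on KO adjacent arrays, against 4.85 and 4.32 on floxed adjacent arrays (1.97 ± 0.85, adjusted p = 0.158). Mttp was at 7.08 and 6.45 on KO adjacent arrays, against 5.09 and 4.57 on floxed adjacent arrays (1.94 ± 1.04, adjusted p = 0.244). These 3 genes and Apoc3 were higher with no overlap, as were 32.1% of all genes. With only these 4 arrays in the fit, Fabp1, Dgat1 and Mttp rose with adjusted p of 0.0458, 0.0196 and 0.0216, where 17.2% of all genes passed, 8.92% higher.

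The remaining genes of adjacent epithelium showed small or uneven differences. Apoa4 differed by −0.01 ± 0.65 with a 95% interval from −1.44 to 1.41, and Apoc3 by 0.27 ± 0.70. Apob (0.92 ± 1.15) and Apoa1 (0.73 ± 0.85) had 1 floxed array above both KO arrays and 1 far below. Fabp2 was higher by 1.82 ± 1.08 with overlap (adjusted p = 0.288). Mogat2 and Cd36 were at −0.41 ± 0.29 and −0.52 ± 0.35. All 8 epithelial markers were higher on these KO arrays, by a median of 1.86, and the part of that in the values above was not tested.

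A wider list of 54 measured genes of lipid uptake, synthesis, droplets, export and regulation was read beside the 10. Between KO tumor and KO adjacent arrays, 48 of the 54 were above 0, by a median of 0.45, and 0 passed in the fit of 4 groups, with 7 at an unadjusted p under 0.05, as were 2.47% of all genes. The smallest unadjusted p there belonged to Abcg5, a subunit of the sterol exporter, and Npc1l1, the cholesterol importer of the brush border. In the KO arrays alone 8 of the 54 rose and 0 fell, where 0.557% of all genes rose. Genes of lipid hydrolysis and transport at the cell surface, sterol export by Abcg5 and Abcg8 included, held 5 of these among 9, transcription factors 2 of 12, triglyceride synthesis 1 of 11, and droplet genes and export genes 0 of 7 and 0 of 14. The 8 calls were not recounted with single arrays left out. Over all genes, this fit gave 368 calls, and 10 to 633 with 1 array left out.

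Abcg8, the partner of Abcg5, was at 5.68, 5.74 and 5.51 on KO tumor arrays, against 4.64 and 4.66 on KO adjacent arrays, and rose by 0.99 ± 0.14 (limma adjusted p = 0.0182 in the KO arrays alone). Slc27a4, a fatty acid transport protein with acyl-CoA synthetase activity, rose by 0.98 ± 0.15 (adjusted p = 0.0244). Hnf4g, the HNF4 form that is restricted to few tissues including intestine, rose by 1.50 ± 0.25 (adjusted p = 0.031) and Npc1l1 by 1.40 ± 0.24 (adjusted p = 0.0319). On these 5 arrays Abcg8 varied little within a tissue, and the tissues lay well apart.

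**Figure D5:**
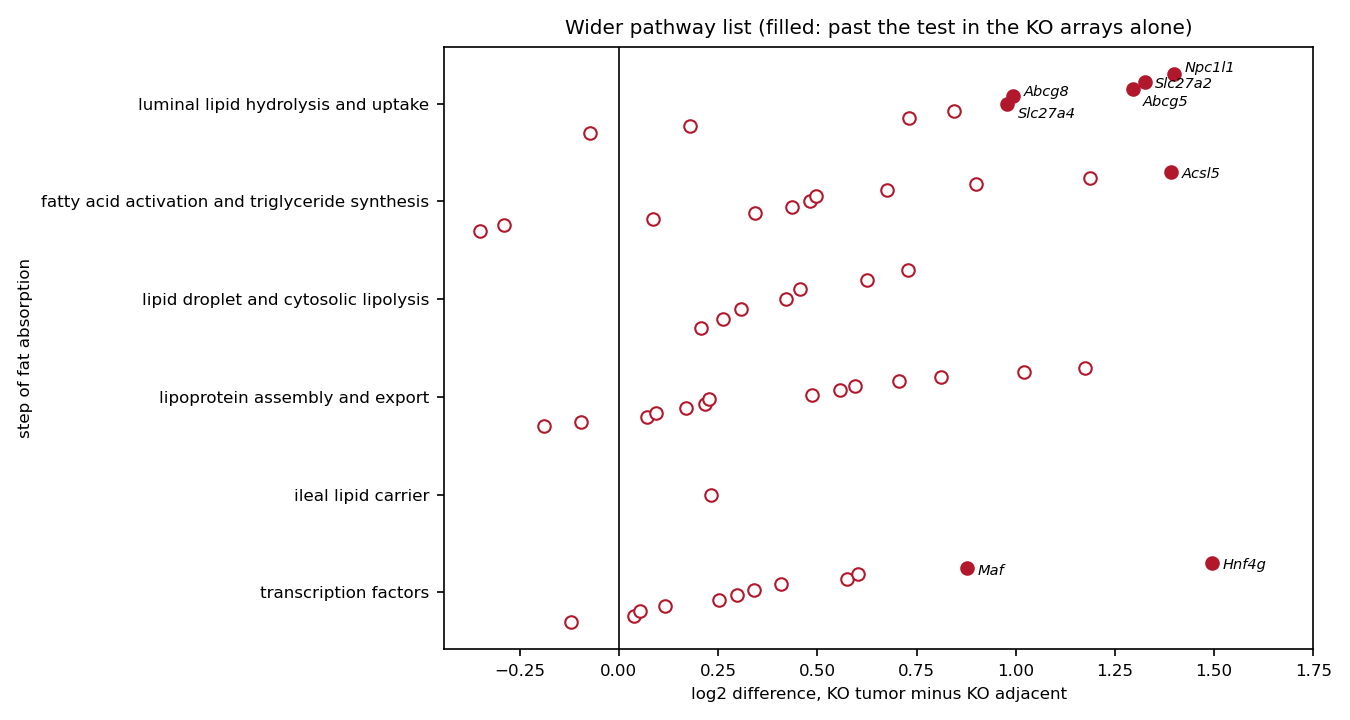
Log2 difference of KO tumor minus KO adjacent arrays (horizontal axis) for 54 genes of the wider list, arranged by step of fat absorption (vertical axis), with filled and named points for the 8 past the test in the KO arrays alone. Most points lie right of 0, and the filled ones are in the hydrolysis and uptake, synthesis and transcription factor rows.

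The wider list in the other comparisons held few calls. Between KO and floxed tumor epithelium, 3 of the 54 rose and 0 fell, where 0.682% of all genes rose. These were Tm4sf5 (1.76 ± 0.32, adjusted p = 0.041), Abcg5 (1.72 ± 0.35, adjusted p = 0.0484) and Maf, a transcription factor (1.74 ± 0.36, adjusted p = 0.0487). Each of these 3 genes was higher on all KO tumor arrays than on any floxed tumor array, as were 13.2% of all genes. The 3 were named for passing the test on these same arrays, so this adds no support. With only these 6 arrays in the fit none of the 3 passed, at adjusted p of 0.139, 0.136 and 0.141, and 0 of the 54 did, where 0.0401% of all genes passed. Between KO and floxed adjacent epithelium, Plagl2, a zinc finger transcription factor (2.12 ± 0.39, adjusted p = 0.0206), Surf4, a cargo receptor of the endoplasmic reticulum (2.09 ± 0.50, adjusted p = 0.040), and Tm4sf5 (1.47 ± 0.39, adjusted p = 0.0495) rose, 3 of 54, with 0 lower, where 2.91% of all genes rose.

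Between floxed tumor and floxed adjacent arrays, and over all 12 arrays, 0 of the 54 passed by limma, with 12 and 7 at an unadjusted p under 0.05, as were 12.5% and 2.57% of all genes. The smallest unadjusted p in floxed mice belonged to Pla2g12b, a catalytically inactive phospholipase that helps to lipidate lipoproteins in mouse liver, at 1.60 ± 0.33 (adjusted p = 0.181), followed by Npc1l1 at 1.29 ± 0.43 (adjusted p = 0.296). Over 12 arrays it was Pla2g12b again, and Sar1b, the GTPase of chylomicron transport vesicles. In the interaction 0 of the 54 passed and 2 had an unadjusted p under 0.05, Pla2g12b at −1.11 ± 0.47 (adjusted p = 0.772) and Plagl2 at −1.10 ± 0.50 (adjusted p = 0.777).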

How the data were processed

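RNA was prepared for arrays with the GeneChip WT Pico kit, per the labels' protocols. The authors deposited 1 log2 expression value per probe set and array, and the submitters' processing notes name Partek and RMA. Versions and further steps are not given in the sources used here. Of 35556 probe sets, 21789 had 1 gene symbol in the platform annotation, 1621 had several and 12146 none here. By Entrez identifier 21698 were found in the RefSeq table, with no symbol altered. A gene was represented by its brightest probe set on average, which gave 19938 genes.

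The 10 arrays with 1 genotype label were fitted as 4 groups (limma 3.58.1, R 4.3.3, lmFit and eBayes, two-sided, Benjamini-Hochberg over all genes), and tumor against adjacent over 12 arrays as 2 groups. A gene passed at an adjusted p under 0.05. The steps were tested on simulated data. Weak-signal arrays had a median correlation with the others under 0.7. The number of arrays limits the precision.

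The deviations of same-numbered KO and floxed tumor arrays from their group means correlated at 0.105, 0.121 and 0.347. By the rule used, their title numbers were therefore taken as a block. These values do not show that the arrays are paired. Floxed tumor array 2 correlated more with KO tumor array 1 (0.246) than with KO tumor array 2 (0.121). What a title number stands for is not stated. The block left the count of the 10 genes at 0 and gave 782 calls over all genes, against 215.

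The 10 genes and all lists were chosen with earlier results of these data known. Of the wider list, genes past the test were named, at most 4 in each direction by smallest unadjusted p, or the 2 smallest where none passed. The 5 genes most alike in pattern were named without predicted genes. Listed genes without a probe set of their own were not analysed here. Alternatives were quantile normalization, a filter on the dimmest 30% of genes, all probe sets, array weights, trend and robust variance, the replicate block, a fit of the compared arrays only, omission of single arrays or of the weak-signal arrays, and both readings of the conflicting labels.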

Additional observations from a re-analysis of the deposited data

Results flagged for a closer look

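In 20 sets of 6 arrays, 1 for each of the 10 genes in each tissue, 4 held an array far from the other 5 by Dixon's test. Chance marks about 1 in 20 such sets. Apoa1 was at 11.97 on floxed tumor array 3, while the other tumor arrays lay at 9.51 to 10.14. In adjacent epithelium Apoa1 was at 6.72 on floxed adjacent array 2, with the other arrays at 8.71 to 9.47. Apob was at 4.56 on the same array, with the others at 5.99 to 6.70. Apoc3 was at 6.77 on conflict array 2, with the others at 5.25 to 5.74. Floxed adjacent array 2 is a weak-signal array.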

How the results depend on the processing

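No alternative turned the sign of any of the 10 genes in the tumor against adjacent comparisons of KO mice, of floxed mice or over 12 arrays. In KO mice, leaving out 1 array could not turn a sign, because no tumor array overlapped an adjacent one. The genotype comparisons were less stable. Array weights gave 1 of the 10 genes past the test for KO against floxed tumor (Dgat1, 1.84, adjusted p = 0.0253), 2 for KO against floxed adjacent (Mttp and Dgat1), 9 for KO tumor against KO adjacent (all but Apob) and 2 for tumor against adjacent over 12 arrays, where the first settings gave 0, and for the last 2 of these 1042 and 127 of all genes passed. Without the weak-signal arrays the counts were 4 for KO against floxed tumor and 4 for KO tumor against KO adjacent. With only the arrays compared they were 3 for KO against floxed adjacent and 4 for KO tumor against KO adjacent. Leaving out 1 array at a time gave 0 to 3 for KO against floxed tumor and 0 to 4 for floxed tumor against floxed adjacent. In the KO arrays alone it gave 0 to 6, where the main count was 4. The replicate block gave 7 in the KO arrays alone, but KO tumor array 3 has no same-numbered KO adjacent array. Calls over all genes were not counted in that fit, so no share stands beside the 7. For KO against floxed tumor, signs turned after quantile normalization for Apob (−0.11) and Fabp2 (−0.49), and without weak-signal arrays for Apob (−1.77), Apoc3 (−0.26), Mttp (−1.60), Fabp1 (−0.33), Fabp2 (−1.06) and Cd36 (0.10). With 1 array left out the ranges crossed 0 for Apob (−0.96 to 1.24), Mttp (−0.061 to 2.18), Fabp2 (−0.84 to 0.73), Apoa1 (−1.15 to 0.035) and Cd36 (−0.19 to 0.12). For KO against floxed adjacent, signs turned after quantile normalization for Apoa1 (−0.49) and Apoc3 (−0.17), with conflict arrays read by title for Apoa4 (0.21) and Apoc3 (−0.25), and read by characteristic for Mogat2 (0.085). Ranges with 1 array left out crossed 0 for Apoa1 (−0.64 to 2.10), Apoa4 (−0.32 to 0.30) and Apob (−0.15 to 1.99). In the interaction, signs turned by title for Mogat2 (0.19), Dgat1 (0.98) and Fabp1 (0.18) and by characteristic for Dgat1 (0.039), and ranges with 1 array left out crossed 0 for Mogat2 (−0.26 to 0.21), Dgat1 (−1.14 to 0.67), Apob (−1.88 to 0.38), Mttp (−2.00 to 0.25) and Fabp1 (−1.84 to 0.057). Over all genes, calls for KO against floxed tumor were 215, and were 8 after quantile normalization, 98 without dim genes, 61 with trend and robust variance, 2907 with array weights, 8 with only the arrays compared, 0 and 132 with conflict arrays read by title and by characteristic, and 10 to 5793 with 1 array left out. For KO against floxed adjacent they were 1209, and were 210, 454, 4034, 1 and 48 after quantile normalization, without dim genes, with array weights, and by title and by characteristic, and 1 to 427 with 1 array left out. The replicate block gave 2450 there and 0 of the 10 genes, and its numbers were not taken to pair arrays outside tumor epithelium. Under it the median of the 10 genes for KO tumor against KO adjacent was 0.74. The causes were not tested. Fits without weak-signal arrays were not run for KO against floxed adjacent, floxed tumor against floxed adjacent and the interaction, which then hold no floxed adjacent array. Every gene of the 10 has 1 probe set, so using all probe sets left its values as they were. Weak signal on 4 of 5 floxed arrays limits every genotype value.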

Other observations

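The title of conflict array 1 says KO and its genotype characteristic says floxed, and for conflict array 2 it is the other way round. Over all probe sets, the correlation of conflict array 2 with KO arrays was 0.956 to 0.973, and that of conflict array 1 was 0.822 to 0.852 with them and 0.90 with floxed tumor array 3. The mean of the 10 fat absorption genes was 6.76 on conflict array 1 and 7.25 on conflict array 2, against 6.90 and 6.34 on the KO adjacent arrays and 6.21 and 5.22 on the floxed adjacent arrays. Apoa4 was at 9.26 and 8.61 on the conflict arrays, above all 4 other adjacent arrays. Mogat2 was at 4.19 and 5.26, and the value on conflict array 1 was the lowest of all 12 arrays.

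Conflict array 1 held high values of stomach and Brunner gland genes. Gkn1, a gastrokine of the stomach surface, was at 11.24 there and at 4.12 to 7.73 on the other 11 arrays. Muc5ac, the mucin of gastric surface cells, was at 9.91 there and at 4.26 to 5.57 on the others. The summed level of the 4 markers of this list was 41.05 on conflict array 1. Fabp6, the ileal bile acid binding protein, was at 3.31 to 4.58 on all 12 arrays. Muc3, of the same ileum list, was at 4.998 to 11.16. Proximal small intestine markers varied unevenly. Cybrd1 was at 4.221, 4.481 and 10.77 on KO tumor arrays, and 7.499, 6.853 and 10.61 on floxed tumor arrays. Slc40a1 was at 3.982, 4.845 and 8.961 on KO tumor arrays, and 5.113, 6.155 and 8.892 on floxed tumor arrays. Gata4 varied less on KO tumor arrays, at 5.865, 5.924 and 6.444. The part of gut region in the values of the 10 genes was not tested.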
